A study of Caenorhabditis elegans with 12 samples.

Results

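The average effect of the *hsf-1*(*sy441*) genotype over both treatments was measured by setting all 6 mutant libraries against all 6 wild-type libraries, with the treatment as a second term of the model, so that every one of the 12 libraries of the series was used. The mutants (strain TTV450) carry the *sy441* allele of *hsf-1* and are set against the wild-type strain N2. In each genotype, 3 libraries came from animals given a heat shock of 30 min at 35 °C, followed by 1 h of recovery at 20 °C, and 3 came from animals kept at 20 °C throughout. All were whole animals on day 1 of adulthood, sequenced as poly-A RNA, and each value is a raw number of reads for a gene. The study describes TTV450 as outcrossed to the wild type, and it is the only mutant strain here. The effect of *sy441* and that of any other variant of this strain, linked to *hsf-1* or not, cannot be told apart. In libraries of whole animals, fewer cells of a type and less RNA per cell cannot be told apart either.

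HSF-1 is the heat shock transcription factor. On heat stress it forms trimers and binds heat shock elements in the promoters of chaperone genes, and in unstressed worms it also keeps up the expression of chaperones during growth and ageing and acts together with DAF-16, the transcription factor of the insulin pathway. The protein made from *sy441* is considered to lack the transactivation domain but to keep the DNA-binding and trimerization domains.

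The libraries held 68188334 to 109248499 counts (median 79763950). Ribosomal RNA took 7.41% of them in sy441 control replicate 1, 7.34% in sy441 heat shock replicate 1 and no more than 4.21% in any other library. The first principal component, with 34.4% of the variance, separated the genotypes. On the second, with 17.02%, N2 control replicate 3 (62.93) and N2 heat shock replicate 1 (80.12) stood apart from the other wild-type libraries (-71.79 to -5.857). The mutants spread from -48.51 to 61.42 on it, with sy441 heat shock replicate 1 highest, so that no library group was compact. Counts that moved by over 1.5 times without both mutant libraries rich in ribosomal RNA (sy441 replicates 1), or without the pair of wild-type libraries that stood apart (N2 control replicate 3 and N2 heat shock replicate 1), are given beside the result. The replicates are labelled biological, but separate cultures are not stated, so that the spread behind the p-values may be technical. Deviations from the group means correlated between the mutant control and heat shock libraries of the same number (r = 0.342, 0.336 and 0.199 across genes, which are not independent), but not in the same way in wild type (-0.363, 0.218 and -0.316). The 6 mutant libraries may therefore hold fewer than 6 independent samples, which the labels do not settle, and the fit was repeated on 3 sums against 3, each of a control and a heat shock library of the same genotype and number. Reads of near-identical genes (sperm proteins, histones, the *hsp-16* pairs) and of overlapping genes may be shared, since the strand setting and the handling of reads with several matches are not given.

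Of 17946 genes tested with edgeR's quasi-likelihood F test, 3880 (21.6%) were called at a Benjamini-Hochberg adjusted p under 0.05. Of these, 2765 (15.4% of the tested genes) were higher and 1115 (6.21%) were lower in the mutants. The rises were larger and in weaker genes: the median log2 fold change was 1.25 among the higher genes and -0.61 among the lower ones, and the median level was 5.004 CPM (TMM-scaled reads relative to library size) among the higher and 53.6 CPM among the lower genes. On the summed libraries, 3223 genes were called (2135 higher and 1088 lower), 2882 of them as before. Without both mutant libraries rich in ribosomal RNA 1489 were higher and 591 lower, and without both wild-type libraries that stood apart 3269 were higher and 2100 lower. Counts of gene groups given below without these libraries are to be read against these numbers. All 6 mutant libraries lay above all 6 wild-type libraries for 1496 genes (8.34%), and below them for 597 genes (3.33%). The split by direction depended on the scaling. The median log2 fold change of all tested genes was 0.09 with the default TMM reference library, 0.03 with RLE factors and -0.08 with N2 control replicate 3 as the TMM reference, and with this last choice 2154 genes were higher and 2130 lower. All 1115 lower and 2154 of the 2765 higher genes kept their call and direction under that choice. Fewer genes were higher without sy441 control replicate 1 (1657), sy441 heat shock replicate 1 (1761) or N2 control replicates 1 or 2 (1828 and 1823). Fewer were lower without N2 heat shock replicates 1 or 2 (668 and 716), and more without N2 control replicates 1 or 2, N2 heat shock replicate 3 or sy441 replicates 2 (1728 to 2047). Gene groups are therefore read below against the median of all genes, 0.09. In every group, a gene that passed the filter on low counts only through 1 genotype had to be higher in that genotype. The groups were chosen with earlier results of these data known, so that a shared direction is no independent result.

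The transcript of the mutated gene was not called between the genotypes. *hsf-1* (chromosome I, 11953507 to 11963085) had between 76.6 and 129 CPM (median 93.7) in the mutants and between 67.6 and 154 CPM (median 120.3) in wild type. The ranges overlapped, and the log2 fold change was -0.27 with a standard error of 0.20 (adjusted p = 0.377 by edgeR). Without N2 control replicate 3 and N2 heat shock replicate 1 it was -0.48 (edgeR adjusted p = 0.0245). Since *sy441* alters the protein rather than removing the transcript, this level does not check the labels.

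In a list of 16 tested genes for HSP90, its cofactors and related proteins that bind HSP70 or HSF-1, 9 were lower in the mutants and none was higher (median log2 fold change -0.43). Of all tested genes, 6.21% were lower. Leaving out 1 library at a time gave 7 to 12 lower genes and never a higher one. HSP90 is an abundant chaperone that matures kinases and receptors. Its gene *hsp-90* had between 2332 and 2941 CPM (median 2465) in the mutants and between 2177 and 5474 CPM (median 4628) in wild type (log2 fold change -0.77 with a standard error of 0.19 and an adjusted p of 0.0124 by edgeR). The ranges overlapped only because N2 control replicate 3 was at 2177 CPM. The other 5 wild-type libraries, at 4474 CPM or more, were all above the mutants. Without N2 control replicate 3 and N2 heat shock replicate 1 the adjusted p was 4.14e-05.

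Cofactors of HSP90 and HSP70 were lower as well. *ahsa-1*, which encodes the activator of the HSP90 ATPase, had 228 to 287 CPM (median 247) in the mutants and 360.4 to 609.9 CPM (median 486) in wild type, without overlap (log2 fold change -0.93 with a standard error of 0.14 and an adjusted p of 0.000775 by edgeR). The p23 gene *daf-41* was also free of overlap, at 467 to 713 CPM in the mutants and 819.5 to 1205 CPM in wild type (-0.68, edgeR adjusted p = 0.00681). So was *bag-1*, a nucleotide exchange factor of HSP70, at 53.5 to 82.5 CPM in the mutants and 95.5 to 181 CPM in wild type (-0.93, edgeR adjusted p = 0.00233). These mutant libraries thus lay together below every wild-type library. *sti-1*, whose product passes clients from HSP70 to HSP90, had 104.1 to 144 CPM in the mutants and 118 to 345 CPM in wild type (-0.94, edgeR adjusted p = 0.00501). The immunophilin gene *fkb-6* had 207 to 277 CPM in the mutants and 232 to 464 CPM in wild type (-0.75, edgeR adjusted p = 0.00436). Both of these overlapped, and N2 control replicate 3 was again the lowest wild-type library, at 118 CPM for *sti-1* and 232 CPM for *fkb-6*. The remaining lower members were *ddl-1*, *chn-1* and *hsb-1*, and *hsb-1* encodes a protein that binds HSF-1 and holds it back. The 9 lower genes are therefore not all cofactors of HSP90.

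**Figure D1:**
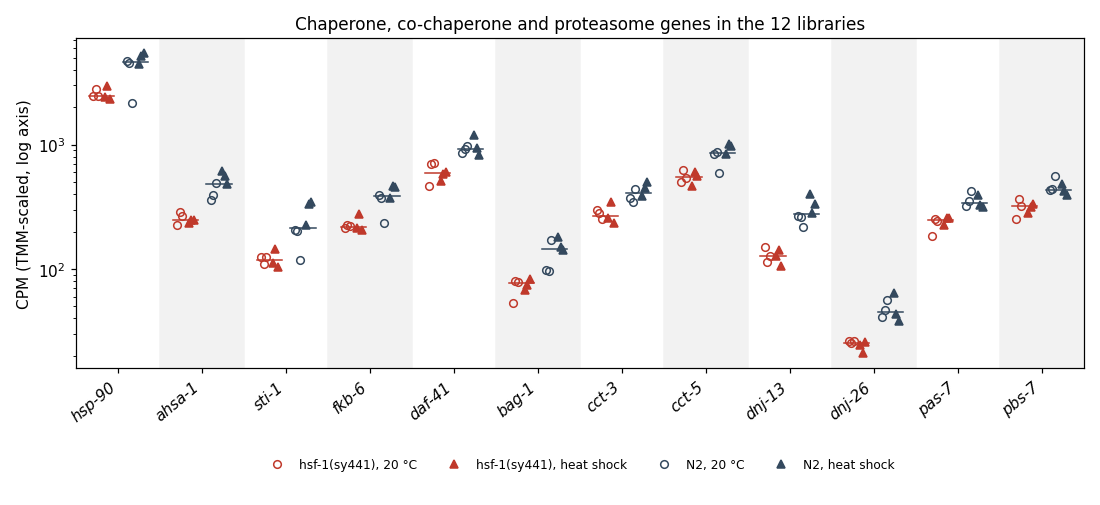
TMM-scaled CPM on a log axis of 12 genes for chaperones, co-chaperones and proteasome subunits, in the 6 *hsf-1*(*sy441*) libraries (red, left) and the 6 N2 libraries (dark, right), with open circles for 20 °C, filled triangles for heat shock and a line at the median of each genotype. The mutant medians lie below the wild-type medians in all 12 genes, and the low wild-type point of *hsp-90*, *sti-1*, *fkb-6* and *cct-5* is N2 control replicate 3.

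The J-domain proteins, which hand substrates to HSP70, had 7 lower and no higher genes of 29 (median -0.26), and leaving out 1 library gave 5 to 13 lower genes. The number was 11 on leaving out N2 control replicate 1 or 2, sy441 control replicate 2 or N2 heat shock replicate 3, and 13 without sy441 heat shock replicate 2. It was 3 without both mutant libraries rich in ribosomal RNA and 12 without both wild-type libraries that stood apart. The largest fall was in *dnj-13*, a member of the type that works with HSP70 in the cytosol, with 106 to 149.9 CPM (median 127) in the mutants and 219 to 400.4 CPM (median 275) in wild type (log2 fold change -1.19 with a standard error of 0.15 and an adjusted p of 0.000204 by edgeR). *dnj-26* had 21.04 to 26.2 CPM in the mutants and 38.04 to 63.5 CPM in wild type (-0.96, edgeR adjusted p = 0.000755). Neither gene overlapped between the genotypes. Of the 8 subunits of the CCT chaperonin, which folds actin and tubulin, *cct-3*, *cct-4* and *cct-5* were lower and none was higher (median -0.35), and 6 were lower without N2 control replicate 3 and 7 without both wild-type libraries that stood apart. *cct-3* had 233 to 344 CPM in the mutants and 347 to 496 CPM in wild type (-0.58, edgeR adjusted p = 0.00981), and *cct-4* had 353 to 502 CPM in the mutants and 554 to 719 CPM in wild type (-0.51, edgeR adjusted p = 0.0176). Both were free of overlap. Prefoldin, which brings new actin and tubulin to CCT, was looked at after its values were seen. Of its 6 subunits 4 were lower, but leaving out N2 control replicate 3 or sy441 heat shock replicate 3 left 1, and leaving out N2 heat shock replicate 1 or both wild-type libraries that stood apart left 2, as 1 was left without both mutant libraries rich in ribosomal RNA. *pfd-3* had a log2 fold change of -0.40 (adjusted p = 0.0144 by edgeR).

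The proteasome, the main protease of the cytosol and the nucleus, had 13 lower and no higher genes among 31 tested subunits (median -0.32). This count was 5 without N2 heat shock replicate 1 or 2, 7 without sy441 control replicate 3, 4 without both mutant libraries rich in ribosomal RNA 7 on the summed libraries and 23 without both wild-type libraries that stood apart, while no subunit was called higher in any of these fits. The alpha subunit gene *pas-7* had 185 to 257 CPM in the mutants and 318 to 428 CPM in wild type (-0.60, edgeR adjusted p = 0.00678). The beta subunit gene *pbs-7* had 250.4 to 364 CPM in the mutants and 394 to 557 CPM in wild type (-0.54, edgeR adjusted p = 0.0117). In both, every mutant library was below every wild-type library. Proteins of the mitochondrial ribosome, a list added after its values were seen, had 29 lower and no higher genes of 71 (median -0.45), with 16 lower without N2 heat shock replicate 1, 19 without N2 heat shock replicate 2 45 without N2 heat shock replicate 3 and 12 without both mutant libraries rich in ribosomal RNA. *mrpl-4* had 33.5 to 42.2 CPM in the mutants and 53.7 to 60.1 CPM in wild type (-0.52, edgeR adjusted p = 0.00471), and *mrpl-20* had 26.3 to 36.4 CPM in the mutants and 43.2 to 66.3 CPM in wild type (-0.63, edgeR adjusted p = 0.00602). The libraries of the genotypes were apart in both genes. Of 80 cytosolic ribosomal protein genes none was lower, and leaving out 1 library gave at most 5 lower ones and the summed libraries 2.

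**Figure D2:**
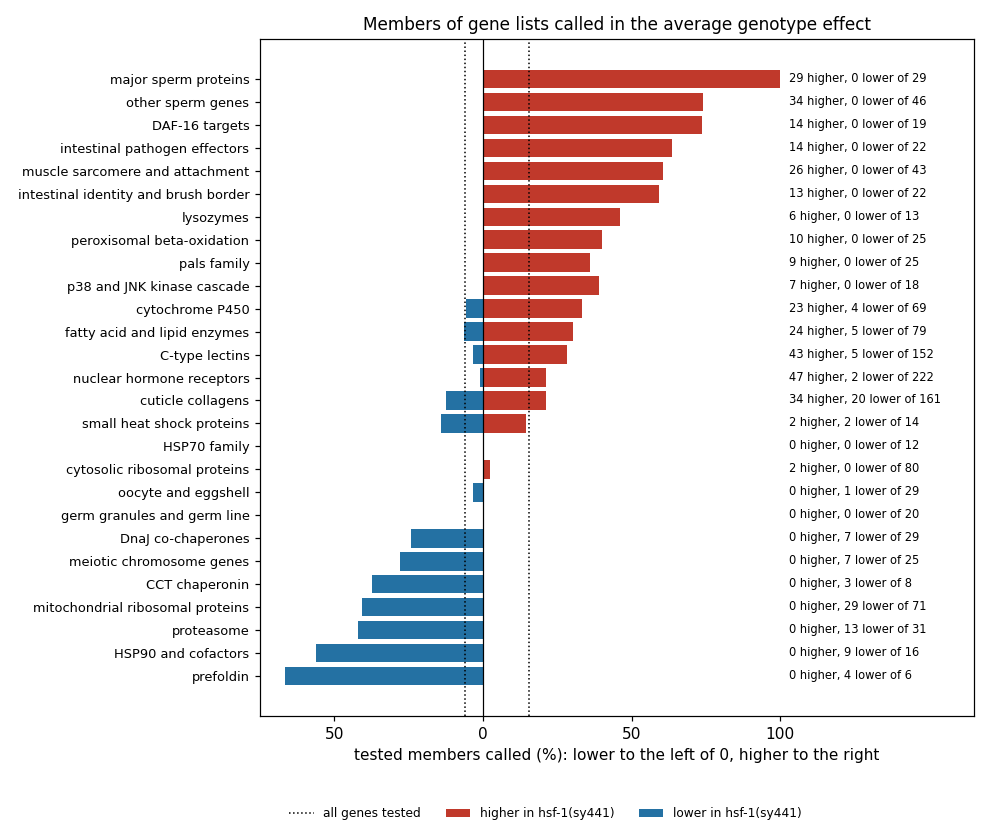
Share of the tested members of 27 gene lists that were called higher (red, right of 0) or lower (blue, left of 0) in *hsf-1*(*sy441*) mutants than in N2, in percent, with the counts written beside each bar. The dotted lines mark the shares among all tested genes, 15.4% higher and 6.21% lower, and the lists of HSP90 and cofactors, DnaJ co-chaperones, the CCT chaperonin, prefoldin and the proteasome have lower members and no higher one. The small heat shock proteins have 2 of each and the HSP70 family has none, while both sperm lists, muscle and the list of intestinal identity have higher members and no lower one.

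The small heat shock protein and HSP70 genes, not all of which are induced by heat, did not move as a single group. Of 14 small heat shock protein genes, *hsp-16.2* and *hsp-16.41* were lower, *hsp-43* and *hsp-25* were higher, and 10 were not called. Of the higher ones, 1 was left when any one of 8 of the 12 libraries was left out, and also without both mutant libraries rich in ribosomal RNA and on the summed libraries. *hsp-16.2*, a cytosolic holdase that is nearly silent without stress, had 0.904, 2.41 and 2.38 CPM in the mutants and 4.54, 5.53 and 8.23 CPM in wild type at 20 °C. After heat shock it had 196, 95.9 and 138 CPM in the mutants and 942, 506 and 518 CPM in wild type. All 3 mutant libraries were below all 3 wild-type libraries in each treatment, so that the gene was lower on average (log2 fold change -1.95 with a standard error of 0.28 and an adjusted p of 0.000505 by edgeR) although the ranges over both treatments overlapped. Without the treatment term the same difference was not called (edgeR adjusted p = 0.397), because the heat shock itself then counts as spread. Its neighbour *hsp-16.41* was lower as well (-2.002, edgeR adjusted p = 0.0045), but not on the summed libraries (edgeR adjusted p = 0.062). *hsp-16.1*, a close relative in a different cluster, did not follow: its log2 fold change was 0.65 at 20 °C and -0.72 after heat shock (edgeR adjusted p = 0.339 and 0.237). *hsp-43*, which codes for a small heat shock protein that is not induced by heat, had 83.5 to 175 CPM (median 116) in the mutants and 24.3 to 45.8 CPM (median 34.9) in wild type, with no overlap (1.87, edgeR adjusted p = 3.13e-05). No gene of the HSP70 family was called among 12. For the inducible *hsp-70* the log2 fold change was -0.74 (adjusted p = 0.111 by edgeR), and it reached the threshold on leaving out sy441 control replicate 1 (-1.1, edgeR adjusted p = 0.024), sy441 heat shock replicate 1 (-1.12, edgeR adjusted p = 0.031) or N2 control replicate 1 (-1.003, edgeR adjusted p = 0.0408). Without N2 control replicate 3, 2 genes of the family were called lower, and 1 was without sy441 heat shock replicate 2. Without both wild-type libraries that stood apart 3 were lower and 1 was higher, and 1 was lower without both mutant libraries rich in ribosomal RNA. The calumenin gene *calu-1*, whose product binds calcium in the secretory pathway, had a log2 fold change of 0.52 and was not called (adjusted p = 0.0745 by edgeR, and 0.0493 on the summed libraries).

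The largest differences were in genes that were close to silent in 1 genotype, and several were in pairs. *C38D9.2*, on the right arm of chromosome V (17567150 to 17571742), had 254 to 381 CPM (median 278) in the mutants and 0.159 to 0.436 CPM (median 0.250) in wild type (log2 fold change 10.12 with a standard error of 0.26 and an adjusted p of 8.74e-12 by edgeR). Its neighbour *C38D9.13* downstream had 17.8 to 31.7 CPM in the mutants and at most 0.0944 CPM in wild type. Both were at these levels in each of the 6 mutant libraries. On chromosome II, *F15D4.5* had 155 to 253 CPM in the mutants and 0.710 to 1.63 CPM in wild type (7.40, edgeR adjusted p = 1.25e-10), and the nearby *F15D4.6* had 18.1 to 32.6 CPM in the mutants and 0.396 to 0.9504 CPM in wild type (5.40, edgeR adjusted p = 2.09e-08). A duplicated pair in the middle of chromosome V, *W09B7.1* with *W09B7.2* and *F07B7.1* with *F07B7.2*, rose in all 4 genes, with log2 fold changes of 7.86, 5.36, 7.53 and 5.52, and the copies may share reads. *F40D4.13* (5.32, edgeR adjusted p = 2.06e-10) and *ZK177.9* (8.51, edgeR adjusted p = 3.95e-06) were further genes of this kind, and neither overlapped between the genotypes. *scrm-4*, a gene of the phospholipid scramblase family, had 41.6 to 60.2 CPM in the mutants and 2.69 to 5.66 CPM in wild type (3.77, edgeR adjusted p = 2.72e-08). Whether such differences come from *sy441* or from another variant of the strain was not tested.

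In all, 58 called genes had no count in any wild-type library and 7 had none in any mutant library. Against a floor of 3 counts over the 6 libraries, *scl-20*, which encodes a secreted protein of the SCP family, was at least 68.2-fold higher in the mutants (190 counts, against none in wild type, edgeR adjusted p = 0.0011). *hpo-25* was at least 249-fold lower (no count in the mutants, against 804 in wild type, edgeR adjusted p = 0.00068). These bounds cover counting error only. The C-type lectin gene *clec-190* had 13.5 to 79.2 CPM (median 24.3) in the mutants and 222 to 527 CPM (median 298) in wild type (log2 fold change -3.40 with a standard error of 0.41 and an adjusted p of 0.000143 by edgeR). *C36C5.5* had 4.69 to 8.18 CPM in the mutants and 23.8 to 45.5 CPM in wild type (-2.19, edgeR adjusted p = 1.49e-05). *F57A10.4* had 4.45 to 10.3 CPM in the mutants and 19.7 to 60.2 CPM in wild type (-2.25, edgeR adjusted p = 0.000237). None of the 3 genes overlapped. The F-box gene *fbxa-170* (-1.60, edgeR adjusted p = 6.89e-05) was lower too, and so was *T06G6.6* (-3.07, edgeR adjusted p = 0.00469).

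Sperm genes rose together. Hermaphrodites make sperm in the last larval stage and then switch to oocytes, so that transcripts of sperm genes are low in adults. All 29 tested major sperm protein genes, whose products move nematode sperm and signal to oocytes, were higher in the mutants (median log2 fold change 3.95), and so were 34 of 46 other sperm genes (median 2.86), with no lower gene in either list (2 other sperm genes were lower without both wild-type libraries that stood apart). The lists held 31 and 50 genes before the filter on low counts, and a gene that passed the filter only through the mutant libraries had to be higher in them. Leaving out 1 library gave 28 or 29 major sperm protein genes and 29 to 34 other sperm genes, and the summed libraries gave 19 and 24. The summed level of the 29 genes was 113.1 to 349 CPM in the mutants and 1.68 to 33.8 CPM in wild type. It stayed far below that of the oocyte and eggshell genes, which was at least 18260 CPM in the mutants and 12640 CPM in wild type. *msp-31* had 7.75 to 17.4 CPM in the mutants and 0.423 to 2.58 CPM in wild type (3.36, edgeR adjusted p = 0.000174). *msp-40* had 5.35 to 19.3 CPM in the mutants and 0.113 to 1.14 CPM in wild type (4.17, edgeR adjusted p = 9.68e-05). *ssp-9*, a small sperm protein with a similar fold, had 3.25 to 8.59 CPM in the mutants and 0.158 to 0.731 CPM in wild type (3.68, edgeR adjusted p = 8.79e-05). None of these genes overlapped between the genotypes. The Argonaute genes of spermatogenesis rose with them. *alg-3* had 2.39 to 13.1 CPM in the mutants and at most 0.124 CPM in wild type (6.70, edgeR adjusted p = 5.67e-05), and *alg-4* had 0.663 to 2.46 CPM in the mutants and at most 0.350 CPM in wild type (3.25, edgeR adjusted p = 0.00547).

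The rest of the germ line did not rise as a group. None of 29 genes for oocytes and the eggshell was higher and 1 was lower, but 7 were lower without N2 control replicate 3, 3 without sy441 heat shock replicate 2, and none without N2 heat shock replicate 1 or without both mutant libraries rich in ribosomal RNA. Without both wild-type libraries that stood apart 16 were lower, a larger share than that of all genes in this fit (2100 of 17946). In this list 1 gene was higher without N2 control replicate 3, on the summed libraries, with DESeq2 and without both wild-type libraries that stood apart. None of 20 genes for germ granules and germ cells was called, but 6 were lower without N2 control replicate 3, 3 without sy441 heat shock replicate 2 and 9 without both of those wild-type libraries, and 2 were lower on the summed ones. The oocyte yolk receptor gene *rme-2* had 669.5 to 1082 CPM (median 784) in the mutants and 340.3 to 1278 CPM (median 1093) in wild type, and the Notch receptor gene *glp-1* had 170.4 to 275 CPM in the mutants and 91.7 to 291 CPM in wild type. Both ranges overlapped, and neither gene was called. The lowest value of each came from N2 control replicate 3. Of 25 genes that act on meiotic chromosomes, 7 were lower and none was higher (median -0.29), and 11 were lower without any one of N2 control replicates 1 and 3, N2 heat shock replicate 3, sy441 control replicate 2 or sy441 heat shock replicate 2, and 18 without both wild-type libraries that stood apart. The synaptonemal complex gene *syp-2* had 45.4 to 66.1 CPM in the mutants and 84.3 to 154 CPM in wild type, with no overlap (-0.86, edgeR adjusted p = 0.00169). *him-8*, which codes for the protein that binds the pairing centre of the X, was also lower (-0.52, edgeR adjusted p = 0.0126), but not without both mutant libraries rich in ribosomal RNA (edgeR adjusted p = 0.0502).

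Muscle genes were higher in the mutants. All 5 marker genes of body wall muscle rose, and their summed level was 1499 to 2135 CPM in the mutants and 546 to 1119 CPM in wild type. In the longer list of 43 sarcomere and attachment genes, 26 were higher and none was lower (median 0.62), with 16 higher when sy441 control replicate 1 or sy441 heat shock replicate 1 was left out, and 20 higher and 1 lower without both. Troponin T gene *mup-2* had 273 to 352 CPM (median 298) in the mutants and 75.6 to 157 CPM (median 131) in wild type (log2 fold change 1.33 with a standard error of 0.17 and an adjusted p of 0.00025 by edgeR). *myo-3*, a myosin heavy chain at the centre of the thick filament, had 66.1 to 96.5 CPM in the mutants and 29.8 to 53.1 CPM in wild type (1.12, edgeR adjusted p = 0.00031). The paramyosin gene *unc-15* had 355 to 569.7 CPM in the mutants and 147 to 298 CPM in wild type (0.94, edgeR adjusted p = 0.00291). Mutant and wild-type libraries were apart in all 3 genes. The main myosin gene *unc-54* (1.097), the actin gene *act-4* (1.06) and the sarcomere gene *dim-1* (0.90) were higher too, with edgeR adjusted p of 0.00634, 0.000259 and 0.000102. None of 3 pharynx markers and none of 5 neuron markers was called, and *snb-1*, the synaptobrevin of synaptic vesicles, had 161 to 205 CPM in the mutants and 162 to 194 CPM in wild type.

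**Figure D3:**
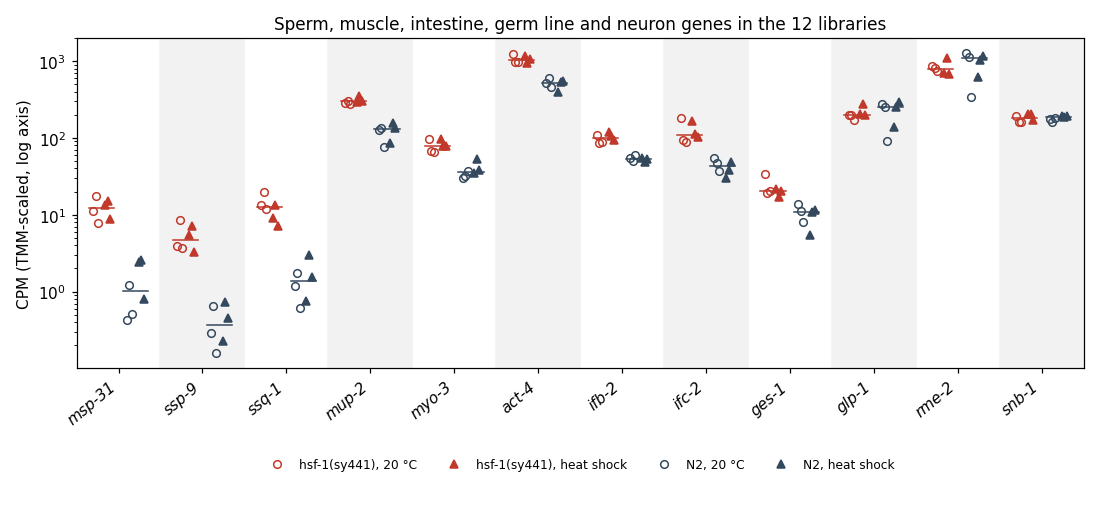
TMM-scaled CPM on a log axis of 3 sperm genes (*msp-31*, *ssp-9*, *ssq-1*), 3 muscle genes (*mup-2*, *myo-3*, *act-4*), 3 intestinal genes (*ifb-2*, *ifc-2*, *ges-1*), 2 germ line genes (*glp-1*, *rme-2*) and the neuronal *snb-1* in the 6 *hsf-1*(*sy441*) libraries (red, left) and the 6 N2 libraries (dark, right), with open circles for 20 °C, filled triangles for heat shock and a line at the median of each genotype. The sperm, muscle and intestinal genes do not overlap between the genotypes, while *glp-1*, *rme-2* and *snb-1* do.

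The intestine, which digests food, makes yolk and faces ingested bacteria, showed the same direction as muscle. Of 6 marker genes, 5 were higher, and of 22 genes of intestinal identity and the brush border 13 were higher and none lower (median 0.83). The higher genes numbered 12 on the summed libraries and 6 to 8 on leaving out sy441 control replicate 1 (6), N2 control replicate 2 (7) or sy441 heat shock replicate 1 (8). *ifb-2*, an intermediate filament under the apical membrane, had 85.97 to 118 CPM in the mutants and 48.4 to 60.7 CPM in wild type (0.90, edgeR adjusted p = 0.000291). Its partner *ifc-2* had 88.3 to 183 CPM in the mutants and 30.0 to 54.03 CPM in wild type (1.55, edgeR adjusted p = 0.000342). The gut esterase gene *ges-1* had 17.2 to 33.9 CPM in the mutants and 5.40 to 13.9 CPM in wild type (1.11, edgeR adjusted p = 0.00328). In none of these did the genotypes overlap. Of the yolk genes only *vit-2* was called (edgeR adjusted p = 0.0448), and it was not called when any of 9 of the 12 libraries was left out. On the summed libraries 2 of the 6 were higher. The intestinal aspartic protease gene *asp-8* had 9.41 to 22.96 CPM in the mutants and 1.53 to 5.86 CPM in wild type (2.56, edgeR adjusted p = 4.77e-06).

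Several families of innate immunity were measured. Of 13 lysozyme genes, which code for enzymes that cut bacterial cell walls, 6 were higher and none was lower, and leaving out 1 library gave 5 or 6 higher and up to 2 lower genes. Without both mutant libraries rich in ribosomal RNA 4 were higher, and on the summed libraries 3 were higher and 1 lower. *lys-7* had 140.5 to 517 CPM (median 215) in the mutants and 46.95 to 79.8 CPM (median 64.9) in wild type (log2 fold change 1.96 with a standard error of 0.26 and an adjusted p of 0.000322 by edgeR). *lys-8* had 156 to 327 CPM in the mutants and 44.99 to 102 CPM in wild type (1.54, edgeR adjusted p = 0.000545), and *lys-1* had 185 to 1016 CPM in the mutants and 113 to 182 CPM in wild type (1.49, edgeR adjusted p = 0.00246). None of the 3 overlapped. Of 22 intestinal genes that respond to pathogens, 14 were higher, but 7 to 9 when any one of N2 control replicates 1 and 2, N2 heat shock replicate 3, sy441 control replicate 1 or sy441 heat shock replicate 1 was left out, 4 without both mutant libraries rich in ribosomal RNA, 7 without both wild-type libraries that stood apart and 5 on the summed libraries. *dod-19* had 136 to 375 CPM in the mutants and 43.5 to 81.4 CPM in wild type (1.85, edgeR adjusted p = 0.000366). *dct-17* had a median of 26.3 CPM in the mutants and 4.78 CPM in wild type (2.24, edgeR adjusted p = 8e-05). These effectors were apart in the genotypes. Antimicrobial peptide genes had 15 higher members of 68 (22.1%, against 15.4% of all genes) and no lower one. The higher ones were 7 without both mutant libraries rich in ribosomal RNA, where 1489 of all 17946 tested genes were higher. They were 30 without both wild-type libraries that stood apart, where 3269 of all tested genes were, so that the count depended strongly on the libraries used. Among them was *fipr-22* at 4.74 to 13.9 CPM in the mutants and 0.924 to 2.43 CPM in wild type (2.25, edgeR adjusted p = 0.000387). C-type lectin genes had 43 higher and 5 lower members of 152 that passed the filter, of 239 in the list (28.3% higher, against 15.4% of all genes). There were 29 to 41 higher without 1 library and 24 without both mutant libraries rich in ribosomal RNA. The lower genes were 3 without N2 control replicate 3 or N2 heat shock replicate 1, 8 without sy441 heat shock replicate 2 and 3 on the summed libraries.

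Of 25 *pals* genes that passed the filter, of 38 in the list, a family of the response to viruses and microsporidia, 9 were higher and none was lower (median 1.33), and leaving out 1 library gave 8 to 10, while 6 were higher without both mutant libraries rich in ribosomal RNA. They were weak in wild type: *pals-6* had 0.823 to 3.53 CPM in the mutants and 0.0472 to 0.349 CPM in wild type (3.23, edgeR adjusted p = 0.00124), and *pals-39* had 0.991 to 3.33 CPM in the mutants and 0.0379 to 0.397 CPM in wild type (3.27, edgeR adjusted p = 0.00137). A *pals* gene that passed the filter only through the mutant libraries had to be higher in them, so that the shared direction and the median are no independent result. Among 18 genes of the p38 and JNK kinase cascades, 7 were higher and none lower, with 4 higher when any one of N2 control replicate 2, sy441 control replicate 1 or sy441 heat shock replicates 1 and 2 was left out. Without both wild-type libraries that stood apart 2 were lower, a share no larger than that of all genes in this fit (2100 of 17946). *tir-1*, which codes for the adaptor at the top of the p38 cascade, had 19.3 to 46.0 CPM in the mutants and 11.5 to 16.36 CPM in wild type, with no overlap (1.13, edgeR adjusted p = 0.00343). *vhp-1*, which codes for a phosphatase that switches these kinases off, overlapped at 23.3 to 101 CPM in the mutants and 13.2 to 39.3 CPM in wild type (1.19, edgeR adjusted p = 0.00789, and 0.0712 on the summed libraries). Among transcription factors of stress and immunity 7 of 27 were higher (25.9%, against 15.4% of all genes) and 1 was lower. The lower one lost its call without sy441 control replicate 3 or N2 heat shock replicate 1 or 2, without both mutant libraries rich in ribosomal RNA and on the summed libraries, while 4 were lower without both wild-type libraries that stood apart. Those higher included *zip-2* (0.78, edgeR adjusted p = 0.00528) and *cebp-1* (1.77, edgeR adjusted p = 0.00521), a pair of bZIP factors of the response to blocked translation.

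Known targets of DAF-16 were mostly higher: 14 of 19 that passed the filter, of 20 found in the table, rose and none fell (median 1.17), with 9 higher when sy441 control replicate 1, sy441 heat shock replicate 1 or both were left out. One of the risen genes, *scl-20*, had no count in any wild-type library, so that its direction was fixed by passing the filter. The mitochondrial superoxide dismutase gene *sod-3* had 2.21 to 4.91 CPM in the mutants and 0.196 to 1.25 CPM in wild type (2.22, edgeR adjusted p = 0.00148). *gpd-2*, a glycolytic dehydrogenase, had 189.5 to 233 CPM in the mutants and 88.0 to 140.0 CPM in wild type (0.86, edgeR adjusted p = 0.000849). Both were free of overlap. The study itself picked *sod-3* on these samples, as it did *lys-1*, *lys-7*, *lys-8*, *dod-19*, *dct-17*, *fipr-22*, *pals-6*, *asp-8*, *calu-1*, *gst-10*, *hsp-16.2* and *hsp-70*, so that none of them is independent evidence of a direction. The list also holds a gene that DAF-16 is known to repress. The insulin-like peptide gene *ins-7* had 6.09 to 33.9 CPM in the mutants and 0.686 to 3.19 CPM in wild type, again higher in the mutants (3.18, edgeR adjusted p = 0.000736). Of the desaturases that make monounsaturated fatty acids, *fat-5* had 18.2 to 201 CPM (median 41.1) in the mutants and 5.54 to 13.5 CPM (median 9.82) in wild type (3.17, edgeR adjusted p = 0.00175). *fat-7* had 94.7 to 452 CPM (median 125) in the mutants and 29.2 to 56.3 CPM (median 45.6) in wild type (2.24, edgeR adjusted p = 0.00199). In both the mutant libraries spread more widely than the wild-type ones but did not overlap with them. On the summed libraries neither was called (edgeR adjusted p = 0.0776 for *fat-5* and 0.082 for *fat-7*).

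Enzymes of detoxification modify and conjugate foreign compounds. Cytochrome P450 genes had 23 higher and 4 lower members of 69 (33.3% higher, against 15.4% of all genes). Leaving out 1 library gave 17 to 24 higher genes, with 2 lower without sy441 control replicate 3 or N2 heat shock replicates 1 or 2, and 1 was lower on the summed libraries. Without both mutant libraries rich in ribosomal RNA 16 were higher and 2 lower. UDP-glucuronosyltransferase genes had 15 higher members of 65 (23.1%, against 15.4% of all genes, and 10 to 17 without 1 library). The 1 lower one was *ugt-64* (log2 fold change -0.57, not called without sy441 control replicate 3 or N2 heat shock replicate 2). Without both mutant libraries rich in ribosomal RNA 5 were higher and none lower, against 1489 higher of all 17946 tested genes in this fit, a share no larger than that of all genes. *cyp-33C8* had 14.1 to 26.8 CPM in the mutants and 2.56 to 4.84 CPM in wild type (2.24, edgeR adjusted p = 5.62e-06). *ugt-41* had 18.5 to 33.1 CPM in the mutants and 5.79 to 11.8 CPM in wild type (1.57, edgeR adjusted p = 0.000342). Both were without overlap. Of 47 glutathione S-transferase genes 9 were higher (19.1%, against 15.4% of all genes). Without both mutant libraries rich in ribosomal RNA 3 were higher, a share no larger than that of all genes in this fit (1489 of 17946). On the summed libraries 4 were higher, and 5 when any one of N2 control replicates 1 and 2, sy441 control replicate 1 or sy441 heat shock replicate 1 was left out. The only lower one, to which the summed libraries and the fit without sy441 control replicate 2 added another, was *gst-1*. It had 188 to 264 CPM in the mutants and 288 to 624 CPM in wild type (-0.82, edgeR adjusted p = 0.00333), whereas *gst-10* was higher (1.47, edgeR adjusted p = 0.00068). In peroxisomal beta-oxidation, which shortens fatty chains and makes the ascaroside pheromones, 10 of 25 genes were higher and none was lower, with 5 or 6 higher when any one of N2 control replicates 1 and 2, sy441 control replicate 1 or sy441 heat shock replicate 1 was left out, and 5 without both of these mutant libraries. Enzymes of several steps were among them, and in 8 of the 12 fits with a library left out 1 gene of the list was lower. *acox-1.1* had 18.7 to 63.05 CPM in the mutants and 8.33 to 22.4 CPM in wild type (1.20, edgeR adjusted p = 0.00455). *dhs-28* had 92.6 to 175 CPM in the mutants and 40.6 to 83.6 CPM in wild type (0.92, edgeR adjusted p = 0.00592). *daf-22*, the thiolase of the last step, had 56.8 to 117 CPM in the mutants and 24.01 to 44.9 CPM in wild type (1.01, edgeR adjusted p = 0.00323). Of these only *acox-1.1* overlapped. Nuclear hormone receptor genes had 47 higher and 2 lower members of 222 (21.2% higher, against 15.4% of all genes). There were 20 to 29 higher when any one of 7 libraries was left out (N2 control replicates 1 and 2, N2 heat shock replicate 3, sy441 control replicates 1 and 2, sy441 heat shock replicates 1 and 2). Leaving out 1 library gave 1 to 5 lower genes. There were 17 higher ones without both mutant libraries rich in ribosomal RNA, a share no larger than that of all genes in this fit (1489 of 17946). There were 31 higher ones on the summed libraries, and 5 lower ones without both wild-type libraries that stood apart. *nhr-80*, a regulator of the desaturase genes, was among the higher ones (1.39, edgeR adjusted p = 0.00303), as was *nhr-45* (1.14, edgeR adjusted p = 0.000741), while *nhr-17* was lower (-0.87, edgeR adjusted p = 0.00152).

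Cuticle collagens moved both ways, with 34 higher and 20 lower members of 161 (21.1% and 12.4%, against 15.4% and 6.21% of all genes). With N2 control replicate 3 as the TMM reference the counts were 27 and 30, and without both mutant libraries rich in ribosomal RNA 22 and 34. On the summed libraries they were 30 and 6. On leaving out N2 control replicate 1, sy441 control replicate 1 or 2, or sy441 heat shock replicate 2, the higher genes numbered 18 to 21. The lower genes were 9 to 11 without sy441 control replicate 3, N2 heat shock replicate 2 or sy441 heat shock replicate 3, and 34 to 38 without sy441 control replicate 1 or sy441 heat shock replicate 1. *col-122* had 863 to 1187 CPM in the mutants and 458 to 658 CPM in wild type (0.89, edgeR adjusted p = 0.000633). *rol-6*, a collagen made around the moults, had 0.897 to 5.71 CPM in the mutants and 5.78 to 13.02 CPM in wild type (-1.93, edgeR adjusted p = 0.00967, and 0.0907 on the summed libraries). Each was free of overlap, and *col-142* was called as well (2.19, edgeR adjusted p = 0.00246). Among 78 histone genes 17 were higher (21.8%, against 15.4% of all genes) and 8 lower. Leaving out 1 library gave 10 to 19 higher and 6 to 13 lower genes, and 11 were higher without both mutant libraries rich in ribosomal RNA. Of the higher ones, 12 were a run of neighbours on chromosome II between 13817760 and 13827709 (median log2 fold change 1.64). *his-15* of that run had 1.57 to 3.93 CPM in the mutants and 0.630 to 1.30 CPM in wild type (1.70, edgeR adjusted p = 0.000734). Histone messages mostly lack a poly-A tail, so that poly-A libraries hold little of them. Single paralogues of the translation apparatus were called. Of 80 cytosolic ribosomal protein genes, *rpl-11.2* and *rpl-25.1* were the ones called. *rpl-11.2* had 462 to 510.4 CPM in the mutants and 242 to 303 CPM in wild type (0.83, edgeR adjusted p = 0.000293), and *rpl-25.1* had 135 to 192 CPM in the mutants and 71.7 to 117 CPM in wild type (0.80, edgeR adjusted p = 0.00326). The elongation factor gene *eef-1A.2* had 233 to 453 CPM in the mutants and 93.0 to 200.3 CPM in wild type (1.16, edgeR adjusted p = 0.00127). In these 3 genes all mutant libraries lay above all wild-type libraries. *ife-5*, a gene for a cap-binding protein, had a log2 fold change of 1.13 (adjusted p = 0.00137 by edgeR).

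Called genes were not spread evenly over the genome. On the X chromosome 21.3% of 2556 tested genes were higher and 1.604% lower, against 11.1% to 17.9% higher and 5.62% to 8.39% lower on the 5 autosomes, and the median log2 fold change was 0.30 on the X. With N2 control replicate 3 as the TMM reference, 14.5% of X genes were higher and 3.76% lower, and 14.5% were higher on chromosome IV too, so that the excess of higher genes on the X over every autosome was not kept, whereas the low share of lower genes was. The 544 higher X genes were 282 to 565 when 1 library was left out, and the 41 lower ones 23 to 81. The higher count moved by over 1.5 times on leaving out any one of the 7 libraries named for the nuclear hormone receptors, and was lowest without sy441 control replicate 1. The lower count was 23 without N2 heat shock replicate 1. Without both mutant libraries rich in ribosomal RNA 11.15% of X genes were higher, against 5.61% to 9.84% on the autosomes. The X held 7.85% to 11.4% of the counts of all tested genes in the mutants and 5.56% to 7.096% in wild type. Without its 5 yolk genes it held 5.37% to 6.19% in the mutants and 3.85% to 4.48% in wild type. The genotypes did not overlap in either share. The X is kept silent in germ cells over most of their development. Muscle and intestinal markers were higher in the same mutant libraries, and their part in the share of the X was not tested.

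The region around *hsf-1* itself stood out, an observation made after the values were seen. Within 250 kb of the midpoint of *hsf-1*, 47 of 77 other tested genes (61.0%) were higher and none was lower, and 74 had a positive log2 fold change (median 0.86). Over the rest of chromosome I, 345 of 2662 genes (12.96%) were higher and 204 (7.66%) lower (median -0.03). Between 250 and 500 kb it was 8 of 65. The count of 47 was 29 to 44 when 1 library was left out, with 29 or 30 without any one of N2 control replicates 1 and 2, N2 heat shock replicate 3, sy441 control replicate 2 or sy441 heat shock replicate 2, where at most 1 gene was lower, and it was 37, with 1 lower gene, with N2 control replicate 3 as the TMM reference. The median was 0.86 in the libraries at 20 °C alone and 0.91 in those after heat shock alone. *R06C1.6*, the gene next to *hsf-1*, had 10.37 to 17.8 CPM in the mutants and 3.11 to 3.94 CPM in wild type (1.91, edgeR adjusted p = 8.26e-06). *tmem-189*, 42.4 kb away and overlapped by a gene on the other strand, had 26.5 to 72.4 CPM in the mutants and 6.80 to 17.1 CPM in wild type (1.93, edgeR adjusted p = 6.71e-06). *F58D5.5* had 211 to 345 CPM in the mutants and 55.6 to 117 CPM in wild type (1.48, edgeR adjusted p = 0.000131). These genes did not overlap between the genotypes. *rrf-2*, an RNA-dependent RNA polymerase gene, was a further member (1.27, edgeR adjusted p = 0.000471), and so was *M01G12.9* (2.497, edgeR adjusted p = 4.52e-06), whose ranges overlapped slightly. Genotype and linked sequence are confounded here and cannot be told apart.

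**Figure D4:**
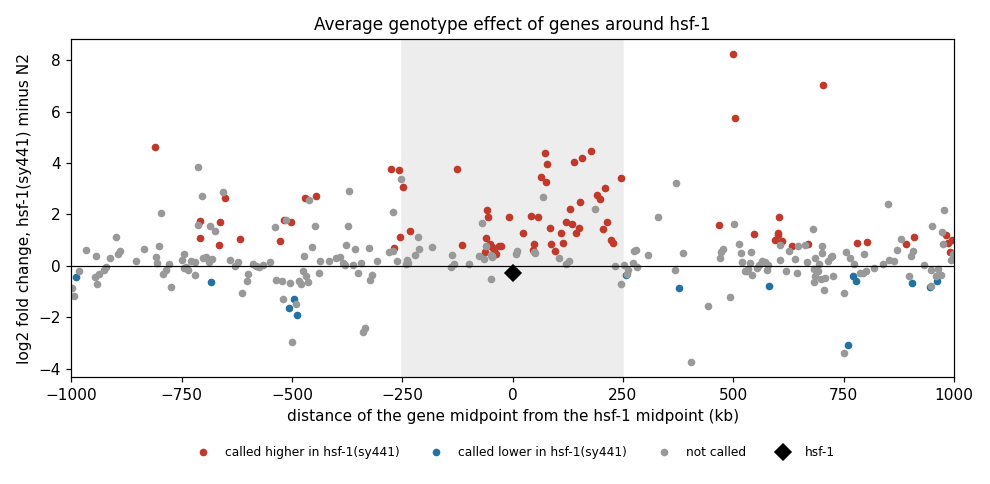
Log2 fold change of *hsf-1*(*sy441*) minus N2 in the average over both treatments (vertical axis) against the distance of each tested gene from *hsf-1* in kb (horizontal axis), with genes called higher in red, called lower in blue, not called in grey and *hsf-1* as a black diamond. In the shaded 250 kb on either side, 47 of 77 genes are called higher and none lower, and *hsf-1* itself lies at -0.27.

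The average stands for both treatments where these gave the same difference. In the 6 libraries at 20 °C alone, 337 genes were called (1.88%), of which 325 (1.81%) were higher and 12 (0.0669%) lower in the mutants, and in the 6 heat-shocked libraries alone 652 were called (3.63%), of which 536 (2.99%) were higher and 116 (0.646%) lower, with 199 genes called in both. These sets of libraries share no sample, but the same-numbered mutant libraries of both sets correlated (r = 0.342, 0.336 and 0.199), so that the sets may not be independent. Of the 325 genes that were higher at 20 °C, 324 were higher on the log2 scale after heat shock, where the median log2 fold change was 2.10, against 2.94 at 20 °C. Of the 536 that were higher after heat shock, 535 pointed the same way at 20 °C (median 1.94 there and 2.03 after heat shock). The agreement was less complete for lower genes, since 98 of the 116 genes that were lower after heat shock pointed the same way at 20 °C. Over 13099 genes with a mean of at least 1 CPM in either genotype, the log2 fold changes of both treatments had a Pearson's r of 0.85 and a Spearman rank correlation of 0.81, where genes of the same library are not independent. None of the 16 genes in the list of HSP90, its cofactors and related proteins was called at 20 °C and 5 were lower after heat shock, but no gene of the list had a called interaction. *ahsa-1* had a log2 fold change of -0.71 at 20 °C (edgeR adjusted p = 0.166) and -1.24 after heat shock (edgeR adjusted p = 0.00775).

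**Figure D5:**
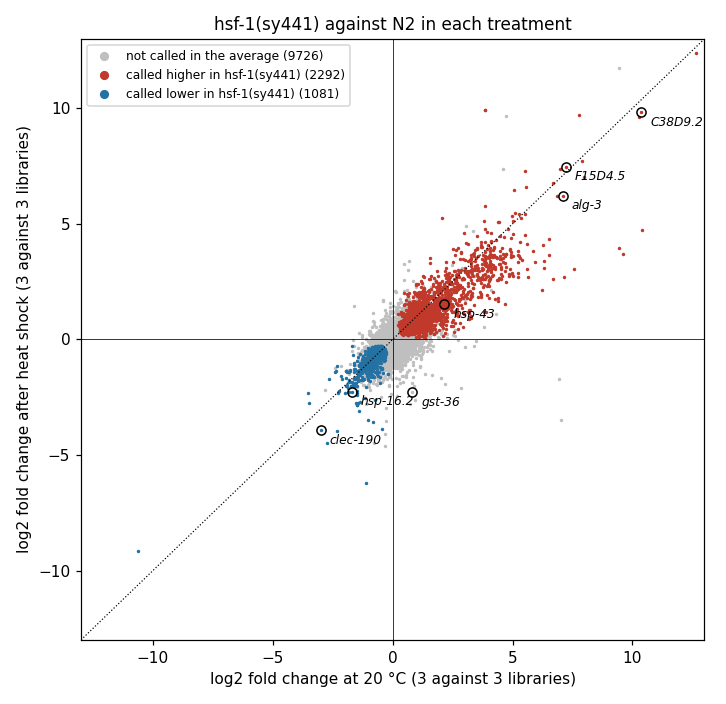
Log2 fold change of *hsf-1*(*sy441*) against N2 at 20 °C (horizontal axis) and after heat shock (vertical axis), 3 against 3 libraries each, for 13099 genes with a mean of at least 1 CPM in either genotype, coloured by their call in the average over both treatments. The 2292 higher (red) and 1081 lower (blue) genes were called on the average of the same libraries. Their position along the dotted diagonal is therefore no separate evidence that the treatments agree. *gst-36* lies right of 0 at 20 °C and far below 0 after heat shock.

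A test of the interaction of genotype and heat shock called 2 of 17946 genes (0.0111%) with edgeR, 455 genes at an unadjusted p under 0.05, and 30 genes with DESeq2. *gst-36*, a glutathione S-transferase gene named for this call after its values were seen, had 23.7 to 28.9 CPM at 20 °C and 22.5 to 32.9 CPM after heat shock in the mutants. In wild type it had 14.4 to 15.8 CPM at 20 °C and 114.0 to 159.7 CPM after heat shock. The wild-type libraries thus lay below the mutants at 20 °C and above them after heat shock, and the average, at -0.70, described neither treatment. The other gene, *C01G5.3*, had 0.0979 to 0.254 CPM in the mutants over both treatments, against no count at 20 °C and 1.22 to 1.90 CPM after heat shock in wild type.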

How the data were processed

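RNA of whole animals was measured in 12 libraries. The authors checked the reads with FastQC, aligned them with HISAT2 and counted them with HTSeq, and deposited the raw counts per gene (versions are not given in the sources used here). From these counts, edgeR 4.0.16 in R 4.3.3 was fitted to 17946 of 46934 genes that passed filterByExpr over the 4 groups, with TMM scaling, robust quasi-likelihood estimation and a model of treatment plus genotype, with Benjamini-Hochberg adjustment over all tested genes. DESeq2 1.42.0, RLE scaling, other filters and models, subsets of libraries, sums of same-numbered libraries and leaving out each library were alternatives. Gene positions refer to WBcel235, and 46924 of 46934 identifiers were in its annotation. Members and lists were chosen with earlier results of these data known. Genes were named by the largest changes and by the leading members of each list, apart from those said to be chosen after their values were seen. *gst-36*, *C01G5.3*, *hsp-16.1*, *glp-1*, *rme-2* and *snb-1* were also named beyond that rule. In counts simulated for this comparison over 17946 genes, a 2-fold change was called in 49 of 100 genes and a 4-fold change in 94 of 100, with 9 false calls. The changed genes were drawn from those at 1 CPM or more, the simulated libraries were independent, and no effect of treatment was put in. In the data many more genes were called, weaker genes among them, and mutant libraries correlated, so that these rates need not hold there.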

Additional observations from a re-analysis of the deposited data

Results flagged for a closer look

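In 11 of 196 sets of 6 libraries (98 genes in each genotype), 1 library lay far from the other 5, and chance gives about 1 in 20. No cause was tested. N2 control replicate 3 was lowest in wild type for *hsp-90* (2177 CPM), *fkb-6* (232.4 CPM), *cct-5* (587 CPM) and *dhs-28* (40.64 CPM). In sy441 control replicate 1, *mrpl-4* was lowest at 33.54 CPM, and *daf-22* (117.3 CPM) and *ges-1* (33.91 CPM) were highest among the mutants. In sy441 heat shock replicate 2, *fkb-6* (276.7 CPM) and *F58D5.5* (344.9 CPM) were highest and *dnj-26* (21.04 CPM) was lowest among the mutants. In N2 heat shock replicate 3, *nhr-45* was highest in wild type at 10.28 CPM.

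The effect of the genotype differed between the treatments in 2 genes by the interaction test of edgeR. For *gst-36* the difference between the effects was -3.08 on the log2 scale (adjusted p = 0.00124 by edgeR), and in each treatment all 3 mutant libraries lay on 1 side of the wild type. For *C01G5.3* it was -10.31 (adjusted p = 0.0391 by edgeR), a fitted value that depends on the prior count, since wild type had no count at 20 °C.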

How the results depend on the processing

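Of 3880 called genes, 1991 (1798 higher, 193 lower) also changed by at least 1 on the log2 scale. The count was 2080 (1489 higher, 591 lower) without both mutant libraries rich in ribosomal RNA, 337 (325 and 12) in the libraries at 20 °C and 652 (536 and 116) in the heat-shocked ones, where fewer samples were compared. Leaving out 1 library gave 3048 to 4076 called genes, 1657 to 2820 higher and 668 to 2047 lower ones. The lower genes were 1864 with DESeq2, 2100 without both wild-type libraries that stood apart and 2130 with N2 control replicate 3 as the TMM reference, and the causes were not tested. The share of higher among called genes was 71.3%, against 65.0% with RLE factors, 50.3% with that TMM reference and 49.8% to 78.6% without 1 library. At 20 °C, DESeq2 called 1311 genes and a fit of 4 group means 1226, after heat shock DESeq2 called 1918, and for the interaction DESeq2 called 30. Over all groups the replicate numbers were not taken to pair the libraries: 11 of 18 correlations of same-numbered libraries were above 0.1 (all 3 within the mutants) and the lowest was -0.363. However, 8 of 12 libraries correlated best with their own number, so that these values do not settle whether same-numbered libraries are paired. With the replicate block 3750 genes were called (3546 of them in common), and 1 interaction. Summing the same-numbered libraries of a genotype, an alternative chosen after the data were seen, gave 3223 called genes, and of the 98 genes given with a test *hsp-16.41*, *rol-6*, *vhp-1*, *fat-5* and *fat-7* lost their call and *calu-1* gained one. Of the 98 genes given with a test, all kept their call with RLE factors, no filter, the block or the newer quasi-likelihood fit, and 28 lost it at a change of at least 1. *hsp-16.2* and *hsp-16.41* (adjusted p = 0.339 by edgeR) lost theirs without the treatment term. Whole-animal RNA and 1 mutant strain limit what a level stands for.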
